A study of Mus musculus with 8 samples.

Results

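Transfer RNAs for phenylalanine (Phe), tryptophan (Trp), methionine (Met) and selenocysteine (SeC) were followed in a table of small RNA sequencing from mouse skin fibroblasts. They were taken by name, as genomic transfer RNA features whose label after the hyphen began with Phe, Trp, Met or SeC. This gave 35 of the 2403 listed features, with 388 other genomic transfer RNA features in the table. There were 7 Phe, 8 Trp, 18 Met and 2 SeC features, which held 21 distinct sequences. The fibroblasts were immortalized and came from C57BL/6 mice, either wild type (WT) or of genotype mir210lox/lox and titled KO. Both kinds of cell spent 24 h at 21% O2 (normoxia) or at 1% O2 (hypoxia). Each of the 4 groups held 2 libraries, numbered 1 and 2. A lox genotype alone does not say that the gene was removed. The name KO was therefore checked on the microRNA miR-210-3p, which held 4786 to 39011 in WT libraries and 10 to 32 in KO libraries. The labels do not state whether the 2 libraries of a group were separate cultures, so every p-value measures only the spread between libraries, which may be technical.

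Transfer RNAs carry amino acids to the ribosome and read the messenger codon with the 3 bases of their anticodon. Met has separate transfer RNAs for starting a protein (initiator, handed to the small ribosomal subunit by eIF2) and for extending one (elongator, handed over by eEF1A). Trp and elongator Met each serve a single codon. The SeC transfer RNA is charged with serine, converted to selenocysteine and read at UGA codons of selenoprotein messages, and it is unusually long. Genes for the Phe, Trp and Met transfer RNAs are present in several copies whose transcripts can be alike letter for letter, so a read can match many copies at once. A small RNA table counts short reads from whole or cleaved molecules without telling these apart, and it gives no position of a read along the transfer RNA. In such cultures fewer cells making an RNA and less RNA per cell cannot be told apart.

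The sequences below are those on which the values turn, in the letters of the deposited table, 5′ to 3′, without the flanking letter at each end. Capitals mark the 7-letter anticodon loop with 3 stem letters on each side, and the anticodon is the middle of the capitals. In SeC tRNA13 the capitals were placed around the TCA of its name. The outer letters of that loop, A and T, can pair, so a 7-letter loop is not established there. The Phe forms are shown because they differ at 1 or 2 letters, Phe tRNA60 at chr13:21253273-21253346, Phe tRNA988 at chr13:21974753-21974826 and Phe tRNA108 at chr19:12083034-12083107.
Phe tRNA60: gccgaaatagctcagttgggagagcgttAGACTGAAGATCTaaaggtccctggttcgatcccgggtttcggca
Phe tRNA988: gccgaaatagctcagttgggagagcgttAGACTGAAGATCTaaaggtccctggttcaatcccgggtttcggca
Phe tRNA108: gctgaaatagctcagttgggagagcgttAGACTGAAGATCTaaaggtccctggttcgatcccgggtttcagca
The Trp forms are Trp tRNA107 at chr13:23589974-23590046, Trp tRNA1880, the highest, at chr11:61221417-61221489, Trp tRNA857 at chr10:90644156-90644228 and Trp tRNA398 at chr11:68855327-68855399.
Trp tRNA107: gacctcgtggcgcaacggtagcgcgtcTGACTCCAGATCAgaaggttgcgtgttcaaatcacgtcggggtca
Trp tRNA1880: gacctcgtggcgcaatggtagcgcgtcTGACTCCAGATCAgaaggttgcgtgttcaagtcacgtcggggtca
Trp tRNA857: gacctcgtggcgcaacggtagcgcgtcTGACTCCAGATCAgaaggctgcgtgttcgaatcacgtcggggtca
Trp tRNA398: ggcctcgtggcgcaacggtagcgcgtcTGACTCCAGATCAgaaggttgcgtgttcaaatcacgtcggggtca
The Met forms show the initiator with its G and C stem letters, Met tRNA983 at chr13:22023037-22023109 and Met tRNA82 at chr13:21998979-21999051, and an elongator, Met tRNA99 at chr13:23409334-23409407.
Met tRNA983: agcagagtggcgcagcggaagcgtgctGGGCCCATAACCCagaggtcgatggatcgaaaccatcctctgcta
Met tRNA82: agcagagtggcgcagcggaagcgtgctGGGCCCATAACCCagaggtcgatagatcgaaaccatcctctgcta
Met tRNA99: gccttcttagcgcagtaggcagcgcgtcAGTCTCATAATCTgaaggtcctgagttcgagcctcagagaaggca
Both features labelled SeC are shown beside a lysine (Lys) transfer RNA. SeC tRNA86 lies at chr7:19886592-19886678, SeC tRNA13 at chr5:5627680-5627751 and Lys tRNA2023 at chr11:48647384-48647457.
SeC tRNA86: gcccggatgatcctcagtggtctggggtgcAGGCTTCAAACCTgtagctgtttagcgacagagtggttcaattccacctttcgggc
SeC tRNA13: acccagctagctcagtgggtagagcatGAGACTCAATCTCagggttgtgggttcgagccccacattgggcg
Lys tRNA2023: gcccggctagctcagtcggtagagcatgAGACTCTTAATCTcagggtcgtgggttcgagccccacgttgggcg

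Positions are the table's own, and each is the transfer RNA feature itself. None of the 33 Phe, Trp and Met features begins within 2 bases of a RefSeq transfer RNA gene of GRCm38, so the build is not GRCm38. Its name is not given in the sources used, and no other annotation was laid over the features. The strand is not listed. Of the 35 features, 15 lie on chromosome 13 between 21253273 and 23622288, a stretch of 2369016 bases, and 7 of the 9 initiator Met features are among them. Without flanking letters the Phe, Trp, initiator Met and elongator Met features were as long as the RefSeq genes of GRCm38.p6, which are 73 bases for 7 Phe genes, 72 for 8 Trp genes, and 72 for 9 and 73 for 7 Met genes.

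Letters are counted from 1 at the first printed base. Phe tRNA988 differs from Phe tRNA60 by G57A in the T arm, and Phe tRNA108 by C3T and G70A, which face each other in the acceptor stem. Relative to Trp tRNA107, Trp tRNA1880 carries C16T and A58G, Trp tRNA857 carries T46C and A56G, and Trp tRNA398 carries A2G. Initiator Met tRNA82 differs from Met tRNA983 by G51A, and initiator Met tRNA876 by G23A. The run GGGCCCATAACCC of the initiator anticodon arm was in 9 of 9 initiator features and in no other of the 423 genomic transfer RNA features on either strand, a share of 2.13%. The T-arm run TGGATCGAA was in 8 of 9 initiator features and in no other feature of the 423 on either strand, and Met tRNA82 lacked it. The run GGTTCGA, searched on both strands, was listed in 242 of 423 features (57.2%), among them 6 of 7 Phe features but no Trp or initiator Met feature, and on the opposite strand in 10 of the 423, 3 of them elongator Met. SeC tRNA13, with 71 letters, was 7 single-letter edits from Lys tRNA2023 and 39 from SeC tRNA86, so its name and its sequence differ. SeC tRNA86, with 86 letters, was at least 31 edits from every other genomic transfer RNA in the table.

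Normalized reads per library totalled 8618630 to 12167438. Genomic transfer RNAs took 6.49% to 10.97% of a library, 6.49% to 7.74% in WT and 7.60% to 10.97% in KO; the exact 95% binomial interval of the 6.49% was 6.48% to 6.50%. The 35 features together held 3.84% to 5.41% of the genomic transfer RNA count, a sum that can hold a read more than once. KO hypoxia number 1 carried 5.76% ribosomal RNA against 1.69% to 2.88% in the others, and it was an extreme library for many features below, whose relation to that share was not tested. MicroRNAs typical of fibroblasts held 41.9% to 50.6% of each library, and lists for epithelial, haematopoietic, muscle, neural and endothelial cells held at most 0.0307%. Replicates correlated with r of 0.974 to 0.984 across 1540 features, which are not independent replicates.

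Per letter of sequence, the highest features were elongator Met tRNA913, with a mean of 63.3 normalized counts per letter over the 8 libraries, and initiator Met tRNA983 with 56.8, followed by its copy Met tRNA90 at 51.3. Initiator Met tRNA82 held 29.4, SeC tRNA86 at 21.9, Trp tRNA1880 at 16.6 and Phe tRNA60 at 15.6. The lowest were elongator Met tRNA355 at 1.68, SeC tRNA13 at 0.454 and Met tRNA1101 at 0.0255. Met tRNA1101, of 93 letters, held 4, 7, 1, 1, 2, 1, 0 and 3 in the libraries (WT normoxia, WT hypoxia, KO normoxia, KO hypoxia, numbers 1 and 2 of each). It was the 1 feature of the 35 that failed the filter of at least 10 in at least 2 libraries, and it was nearest to a threonine transfer RNA, at 23 edits. Its 0 in KO hypoxia number 1 leaves room for at most 3.11e-05% of that library (3 counts, counting error only). The lead of Met tRNA913 over Met tRNA983 was within the spread over libraries, as 2315 to 8736 against 2921 to 4919.

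**Figure D1:**
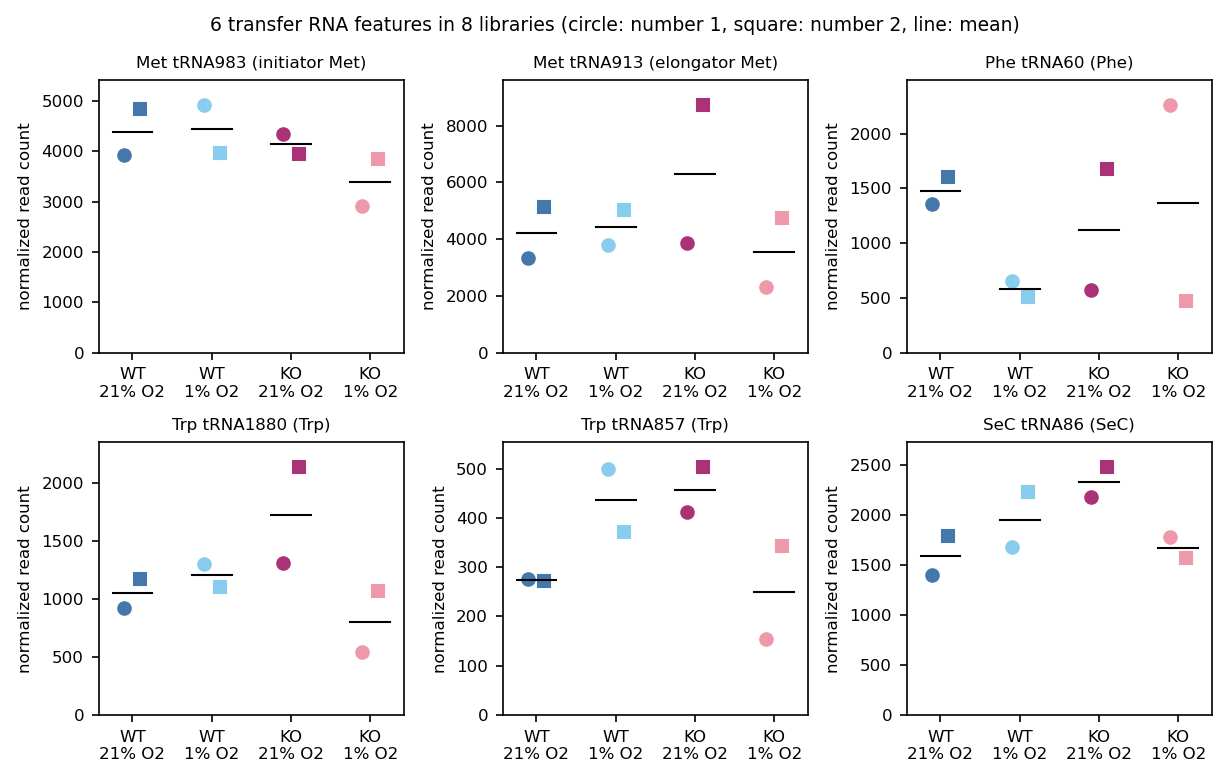
Normalized read count (vertical axes from 0) of 6 features in the 4 groups, with a point per library and a line at the group mean. Phe tRNA60 shows low WT hypoxia libraries (657 and 508) and far-apart KO libraries (573 and 1676, then 2263 and 469), and initiator Met tRNA983 spans only 2921 to 4919.

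Copies with the same transfer RNA letters did not always hold the same count. The 5 Phe copies of the tRNA60 sequence differed by 1.37% to 3.32% of the highest within a library. Of the 7 initiator copies, 5 lay within 2.51% to 4.18% of each other, and Met tRNA983 and Met tRNA90 lay above them. Met tRNA90 was 2.12 to 3.02 times as high as Met tRNA792 in every library, although their listed letters are identical, flanks included. Elongator Met tRNA61 was 1.61 to 2.09 times as high as its copy Met tRNA999. How the authors shared out reads that match several copies is not given in the sources used, so copies of a sequence are not independent measurements.

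**Figure D2:**
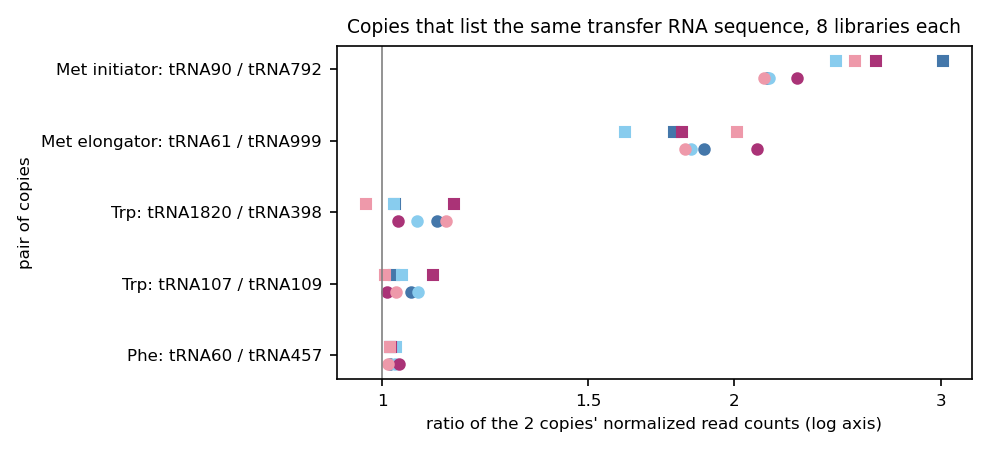
Ratio of the normalized read counts of 2 copies with the same transfer RNA letters (horizontal log axis), with a point per library for 5 pairs (blue WT and red KO, dark 21% and light 1% O2; circles number 1, squares number 2). The Phe and Trp pairs lie near 1 (0.968 to 1.15), and the 2 Met pairs plotted lie at 1.61 to 3.02.

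Forms whose letters differ at 1 or 2 positions were set side by side in the same way. Phe tRNA988 held 66.9% to 98.0% of Phe tRNA60, and the gap between them stayed at 46 to 168 counts while Phe tRNA60 itself ran from 469 to 2263. Phe tRNA108, with its changed acceptor pair, held 42.0% to 65.2% of Phe tRNA60. Trp tRNA1880 was 2.11 to 3.29 times as high as Trp tRNA1849, from which it differs by A58G alone.

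Initiator Met was among the steadier forms. Met tRNA983 held 3932 and 4837 in WT cells at 21% O2, 4919 and 3953 at 1% O2, and in KO cells 4339 and 3942 at 21% O2 and 2921 and 3846 at 1% O2. The KO hypoxia libraries were the lowest of the 8 and did not overlap WT hypoxia, with means of 3384 ± 654 against 4436 ± 683 (SD, n = 2). The log2 difference was -0.40 (SE 0.27, limma, Benjamini-Hochberg adjusted p = 0.902), so it did not pass. Met tRNA82, with 3322 and 2322 in WT hypoxia and 1687 and 1778 in KO hypoxia, differed by -0.68 (SE 0.29, limma adjusted p = 0.545). In normoxia Met tRNA82 held 2459 and 1877 in WT and 1936 and 1537 in KO, so the genotypes overlapped there. Averaged over both oxygen levels its genotype difference was -0.50 (SE 0.21, limma adjusted p = 0.248). All 9 initiator features were lower in KO hypoxia than in WT hypoxia without overlap, against a background of 16.6% of all 1540 features tested. However, the 9 stand for 3 sequences and may share reads. Their median difference there was -0.36, against -0.044 over all features tested, and it stayed below 0 under the 4 other scalings of the libraries (-0.59 to -0.20). It was -0.14 without WT hypoxia number 1 and -0.58 without WT hypoxia number 2. WT hypoxia number 1 was the highest library in 8 of the 9 and KO hypoxia number 1 the lowest in 8.

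Elongator Met followed more than one pattern. Met tRNA913 held 3327 and 5142 in WT cells at 21% O2, 3782 and 5047 at 1% O2, and in KO cells 3871 and 8736 at 21% O2 and 2315 and 4763 at 1% O2. Number 2 was above number 1 in each group, and the groups overlapped in each of the 4 comparisons. Its difference for hypoxia in KO was -0.81 (SE 0.46, limma adjusted p = 0.820). Met tRNA99 held 492 and 463 in WT cells at 21% O2, 667 and 520 at 1% O2, and in KO cells 706 and 551 at 21% O2 and 587 and 634 at 1% O2. Its WT normoxia libraries were the lowest of the 8, and KO exceeded WT in normoxia by 0.39 (SE 0.27, limma adjusted p = 0.601), which did not pass. Met tRNA61 was instead highest in KO hypoxia number 2, at 758 against 388 to 594 in the other libraries. The median over the 8 elongator features for KO against WT in normoxia was 0.42, beside 0.36 over the 379 other genomic transfer RNA features tested. It was 0.12 scaled to the genomic transfer RNA total and 0.66 scaled to the microRNA total. The elongator median for hypoxia in WT was 0.27, which became 0.088 without WT hypoxia number 1 and 0.46 without number 2.

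Phe transfer RNAs spread most between libraries. Phe tRNA60 held 1355 and 1601 in WT cells at 21% O2, 657 and 508 at 1% O2, and in KO cells 573 and 1676 at 21% O2 and 2263 and 469 at 1% O2. WT hypoxia lay below WT normoxia without overlap, with means of 583 ± 105 against 1478 ± 174 (SD, n = 2), while the libraries of a KO group lay as far apart as 469 and 2263. The log2 difference for hypoxia in WT was -1.35 (SE 0.68, limma adjusted p = 1), which did not pass against the spread pooled over the 4 groups. Phe tRNA988 went from 1260 and 1514 in WT normoxia to 511 and 340 in WT hypoxia, a difference of -1.73 (SE 0.77, limma adjusted p = 1). Phe tRNA108 went from 722 and 726 to 428 and 309, a difference of -0.99 (SE 0.55, limma adjusted p = 1). All 7 Phe features were lower in WT hypoxia without overlap, against a background of 11.4% of the features tested, with a median of -1.35 against 0.016 over all features, and they stand for 3 sequences.

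In KO cells Phe tRNA60 gave no such separation. Its difference for hypoxia was 0.072 (SE 0.68), and it became -1.06 without KO hypoxia number 1 and -0.70 without KO normoxia number 1. In the other direction, the Phe median was 1.22 without KO hypoxia number 2 and 0.86 without KO normoxia number 2. KO hypoxia number 1 was the highest library in 7 of 7 Phe features. For Phe tRNA60, KO against WT was -0.59 (SE 0.68) in normoxia and 0.83 (SE 0.68) in hypoxia. The normoxia difference became 0.19 without KO normoxia number 1 and -1.36 without number 2. The hypoxia difference became -0.30 without KO hypoxia number 1 and 1.97 without number 2. The difference between the genotypes in the hypoxia change was 1.42 (SE 0.96, limma adjusted p = 1.00). With libraries left out it ran from -0.49 to 2.56. The -0.49 left out both number 1 KO libraries, a setting chosen after seeing the data.

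**Figure D3:**
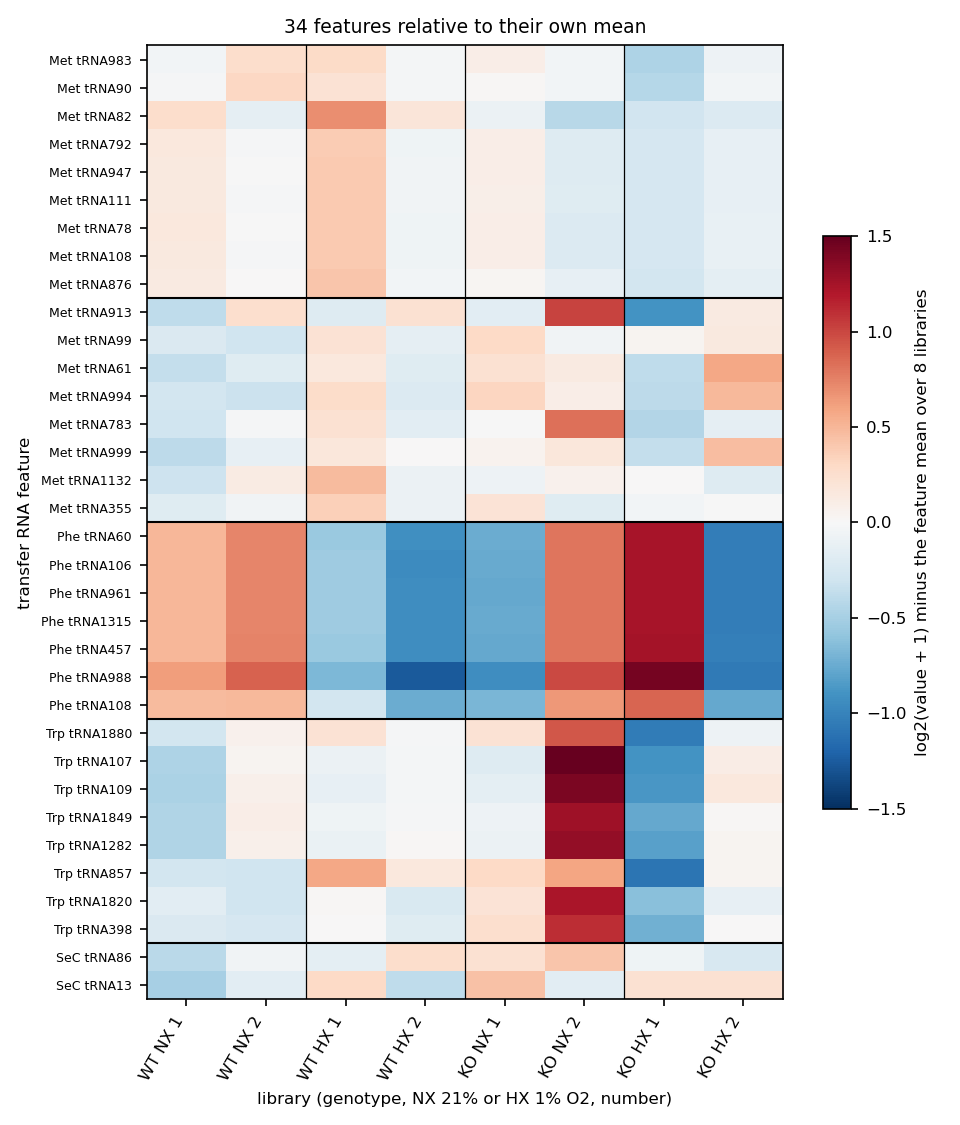
Each row is 1 of the 34 features that passed the filter and each column a library, with colour for log2(value + 1) minus the mean of that feature over the 8 libraries (red higher, blue lower). Rows run from initiator Met through elongator Met, Phe and Trp to SeC. The Phe rows are darkest red in KO hypoxia number 1, where all 8 Trp rows are at their lowest.

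Trp transfer RNAs had another order of libraries. Trp tRNA1880 held 926 and 1170 in WT cells at 21% O2, 1304 and 1105 at 1% O2, and in KO cells 1307 and 2136 at 21% O2 and 542 and 1067 at 1% O2. KO normoxia number 2 was the highest library and KO hypoxia number 1 the lowest in 8 of 8 Trp features, which stand for 6 similar sequences. For Trp tRNA1880 the KO hypoxia libraries lay below KO normoxia without overlap, with means of 805 ± 371 against 1722 ± 586 (SD, n = 2), a log2 difference of -1.13 (SE 0.38, limma adjusted p = 0.804). The same feature differed between genotypes by 0.68 (SE 0.38, limma adjusted p = 0.473) in normoxia and by -0.66 (SE 0.38, limma adjusted p = 0.783) in hypoxia. None of these passed. Trp tRNA857 held 276 and 271 in WT cells at 21% O2, 499 and 372 at 1% O2, and in KO cells 411 and 503 at 21% O2 and 155 and 343 at 1% O2. It was thus higher in WT hypoxia and lower in KO hypoxia than in the matched normoxia without overlap, by 0.65 (SE 0.38) and -0.98 (SE 0.38), and neither passed (limma adjusted p = 1 and 0.804). In hypoxia its KO libraries differed from WT by -0.90 (SE 0.38, limma adjusted p = 0.545). Trp tRNA1820 and its copy Trp tRNA398 had KO normoxia values of 228 and 461, and of 221 and 400, against 177 and 160, and 159 and 156, in WT normoxia. Their genotype differences in normoxia were 0.94 (SE 0.37) and 0.91 (SE 0.37), with limma adjusted p of 0.324 and 0.327. The median over the 8 Trp features was -1.02 for hypoxia in KO, 0.82 for KO against WT in normoxia and 0.15 for hypoxia in WT. The first became -0.44 without KO normoxia number 2 and -1.62 without KO normoxia number 1. It was -0.071 without both KO hypoxia number 1 and KO normoxia number 2, a setting chosen after seeing the data. The second became 0.21 without KO normoxia number 2 and 1.45 without KO normoxia number 1, and the third -0.032 without WT normoxia number 1 and 0.40 without WT normoxia number 2.

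SeC tRNA86 held 1398 and 1786 in WT cells at 21% O2, 1674 and 2228 at 1% O2, and in KO cells 2178 and 2477 at 21% O2 and 1774 and 1571 at 1% O2. KO normoxia lay above WT normoxia without overlap, by 0.56 (SE 0.28, limma adjusted p = 0.415), and above KO hypoxia, whose difference from it was -0.48 (SE 0.28, limma adjusted p = 0.825). In WT the hypoxia difference was 0.29 (SE 0.28, limma adjusted p = 1) with overlapping libraries. The difference between these hypoxia changes was -0.77 (SE 0.39, limma adjusted p = 1.00). None passed. For KO against WT in normoxia the 379 other genomic transfer RNA features tested had a median of 0.36. The 0.56 of SeC tRNA86 there became 0.26 scaled to the genomic transfer RNA total and 0.79 scaled to the microRNA total. SeC tRNA13, the feature with Lys-like letters, held only 22 to 43 in any library.

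**Figure D4:**
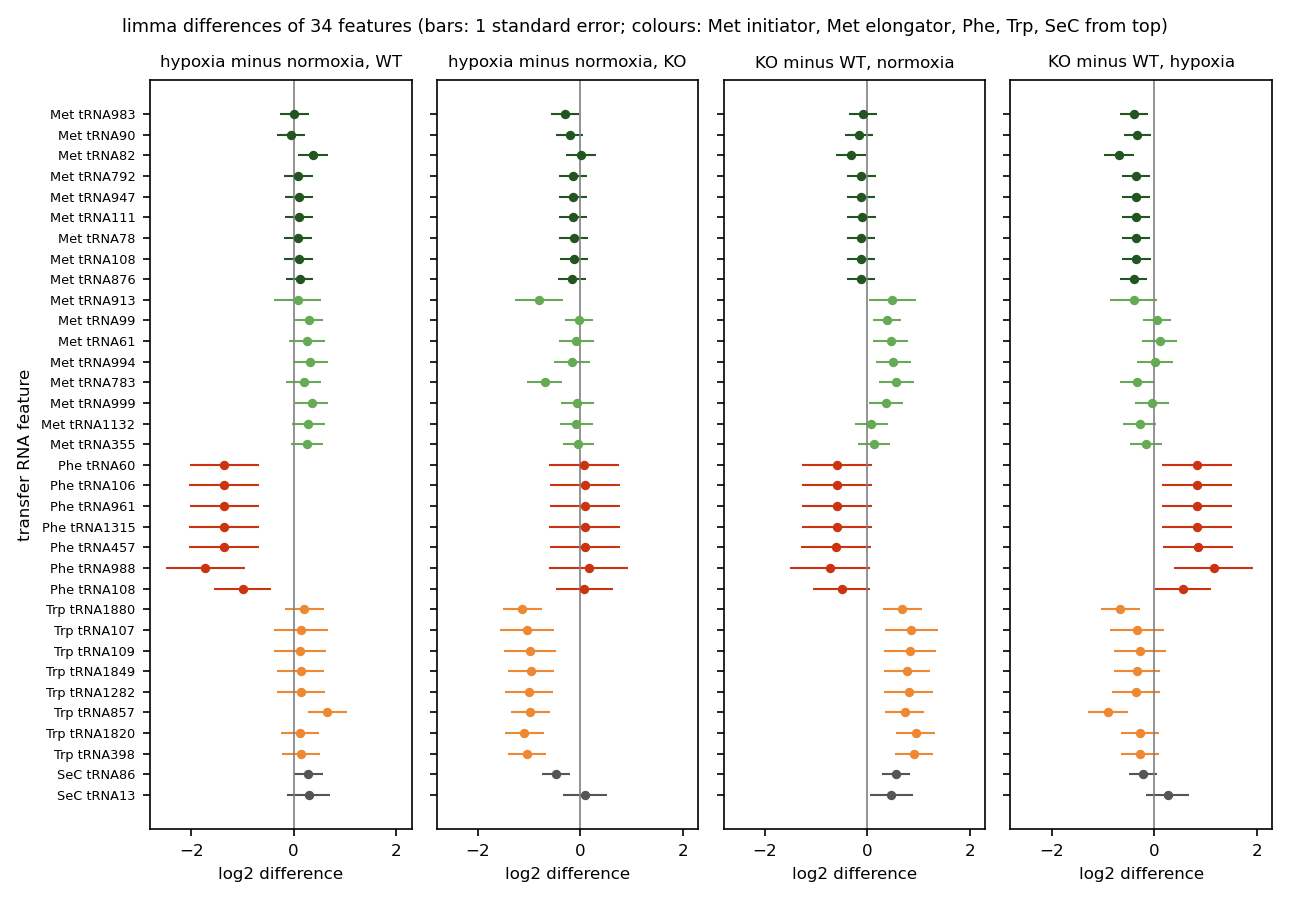
Log2 differences of the 34 tested features (points) with 1 standard error of the limma fit (bars) in 4 comparisons. Phe lies between -1.73 and -0.99 for hypoxia in WT, and Trp between -1.13 and -0.97 for hypoxia in KO, while initiator Met stays between -0.68 and 0.37.

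Across all comparisons no feature of these 4 amino acids passed. For hypoxia in WT, 0 of 34 passed with limma and Benjamini-Hochberg adjustment over 1540 features (background 0%), and 0 had an unadjusted p under 0.05 (background 1.3%). With the 4 WT libraries fitted alone 8 did, with a smallest limma adjusted p of 0.237. The share over all features was not taken in that fit, so these 8 have no background. Without overlap 5 were higher (3 elongator Met, 2 Trp; background 14.4%) and 7 lower (background 11.4%). For hypoxia in KO, 0 of 34 passed (background 0%) and 4 had an unadjusted p under 0.05 (background 5.39%), all of them Trp and lower (background 2.92% for lower). Trp tRNA1820 and Trp tRNA398, copies with the same letters, were among these 4. There 8 were lower without overlap (background 13.1%), 4 Trp, 2 initiator Met, 1 elongator Met and 1 SeC, and none was higher (background 15.8%). For KO against WT in normoxia, 0 of 34 passed (background 0.0649%) and 2 had an unadjusted p under 0.05 (background 13.4%), both Trp and higher (background 8.64% for higher). They were the same copies, Trp tRNA1820 and Trp tRNA398. The 10 that were higher without overlap (background 21.9%) were 5 elongator Met, 4 Trp and 1 SeC, and none was lower (background 20%). For KO against WT in hypoxia, 0 of 34 passed (background 0.13%) and 2 had an unadjusted p under 0.05 (background 9.03%), Trp tRNA857 and Met tRNA82, both lower (background 1.88% for lower). The 11 that were lower without overlap (background 16.6%) were the 9 initiator Met and 2 Trp features, and none was higher (background 19.2%). For the difference between the hypoxia changes, 0 of 34 passed (background 0%) and 4 Trp features had an unadjusted p under 0.05 (background 2.4%), with lower values (background 1.49% for lower). Trp tRNA1820 and its copy Trp tRNA398 were again among these 4. For the mean hypoxia change, 0 of 34 passed (background 0%) and 0 had an unadjusted p under 0.05 (background 3.57%). For the mean genotype difference, 0 of 34 passed (background 0.13%) and Met tRNA82 alone had an unadjusted p under 0.05 (background 17.8%), with lower values in KO (background 5.45% for lower). Comparisons that share a group, such as the hypoxia change and the genotype difference of KO normoxia, share those libraries.

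The 379 other genomic transfer RNA features tested had medians of 0.060 for hypoxia in WT, -0.18 for hypoxia in KO, 0.36 for KO against WT in normoxia and 0.11 for KO against WT in hypoxia. In WT hypoxia Phe thus stood at -1.35 beside 0.060, and in KO against WT in normoxia initiator Met stood at -0.12 beside 0.36. Under scaling to an equal microRNA total the last initiator value became 0.12, and without KO normoxia number 2 it was 0.022, so its sign depends on the scaling and on 1 library. A difference of any form from the other transfer RNAs was not tested.

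The spread over libraries differed between the amino acids. The standard deviation of log2(value + 1) over the 8 libraries had a median of 0.91 over the Phe features, 0.57 over Trp, 0.31 over elongator Met and 0.21 over initiator Met, against 0.36 over 413 genomic transfer RNA features and 0.40 over all features tested. With values summed by anticodon, Phe was the second widest of 50 groups at 0.91, Trp was 7 in that order at 0.58, SeC tRNA86 was 34 at 0.28 and Met was 44 at 0.20. The widest, at 0.97, was a single feature named for a serine anticodon, Ser tRNA832 at chr11:100399471-100399544, shown because its letters are nearly those of Phe.
Ser tRNA832: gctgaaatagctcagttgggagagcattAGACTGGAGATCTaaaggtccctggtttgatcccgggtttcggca
It was 4 letters from Phe tRNA60 (C3T, G26A, A35G and C56T, of which A35G lies in the anticodon) and at least 35 edits from every other serine feature. Its counts were 488 and 458 in WT cells at 21% O2, 204 and 135 at 1% O2, and in KO cells 155 and 595 at 21% O2 and 691 and 164 at 1% O2. These are high and low in the libraries where Phe tRNA60 is high and low, and whether the features share reads was not tested.

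**Figure D5:**
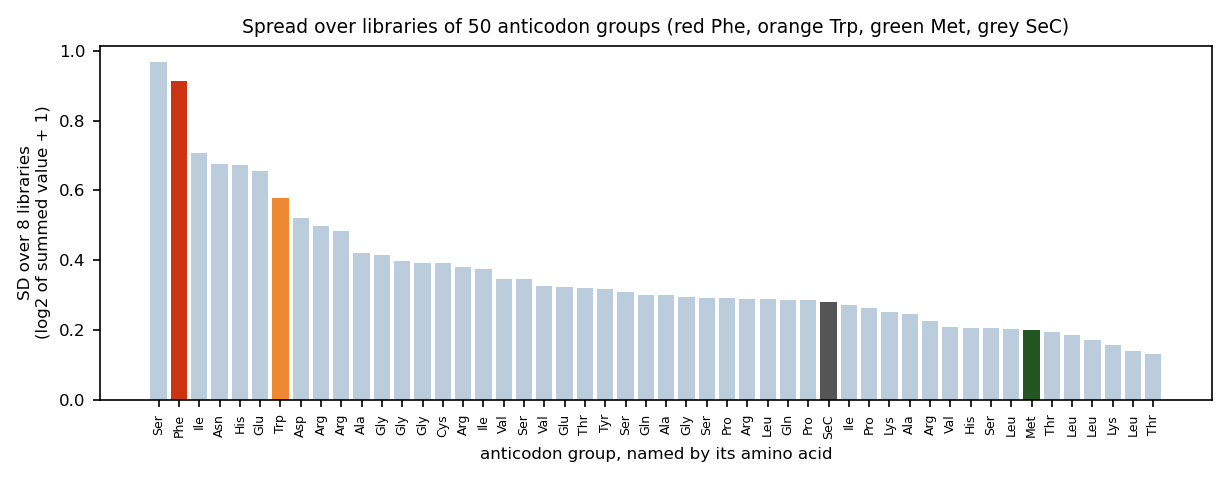
Standard deviation over the 8 libraries of log2(summed value + 1) for 50 anticodon groups of genomic transfer RNA features (bars from 0), from widest to narrowest. Phe is second at 0.91 and Trp 7 in order at 0.58, while SeC at 0.28 and Met at 0.20 lie in the narrower part.

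Mitochondria make their own transfer RNAs for these amino acids from their own genome. mt-Tw, the mitochondrial Trp transfer RNA, held 5230 and 6572 in WT cells at 21% O2, 3644 and 4816 at 1% O2, and in KO cells 4292 and 8869 at 21% O2 and 2920 and 4553 at 1% O2. Its highest and lowest libraries were those of the 8 cytosolic Trp features, although it was at least 41 edits from each of them. Elongator Met tRNA913 had the same highest and lowest libraries, so this order was not particular to Trp. How common it was over all features was not tested. The mean hypoxia difference of mt-Tw was -0.62 (SE 0.27, limma adjusted p = 0.975). mt-Tf, for Phe, ran from 7637 to 12426, and its highest library was WT normoxia number 2 rather than KO hypoxia number 1, where it was at its lowest. mt-Tm, for Met, ran from 5789 to 8717. Of these 3 mitochondrial features 0 passed with limma in any of the 7 comparisons, and mt-Tw alone had an unadjusted p under 0.05, in the mean hypoxia change.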

How the data were processed

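RNA was extracted with a miRNeasy kit and made into libraries with NEBNext reagents for SOLiD sequencing, per the labels' protocols. The authors deposited a score per feature and library, whole numbers that the labels call normalized reads. No source used here names the aligner, the genome build, the normalization or how multi-matching reads were treated, so depth is known only as the totals of the deposited values. Binomial intervals take these values for reads and hold only counting error.

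The members, the lists and the tests were chosen with earlier results of these data known. Libraries were grouped by title into 4 groups of 2. Features with at least 10 in at least 2 libraries were tested (1540 of 2403, 34 of the 35 transfer RNAs). limma 3.58.1 in R 4.3.3 (intensity trend, 4 residual and 5.64 prior degrees of freedom) modelled log2(value + 1) by 4 group means. P-values of each of 7 contrasts were adjusted by Benjamini-Hochberg over all features tested, with a threshold of 0.05. Log2 differences are on this scale and understate changes of low features.

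The rule for named features took both SeC features, the 3 highest features of each anticodon, the 3 with the smallest p in each contrast, and the highest copy of each sequence. Met tRNA792, Met tRNA999, Lys tRNA2023 and Ser tRNA832 fall outside it and were chosen after their values or letters were seen. The sequence of 1 feature and the comparison with its copy, which lay further apart than the pairs plotted, are not reported here. Edit distances used edlib 1.3.9.post1 on sequences without the letter at each end, since all 423 listed transfer RNAs had 1 letter more than their interval. On 5 simulated tables shaped like KO against WT in hypoxia, 200 of 1540 features were changed. There limma detected 21.6% of 2-fold, 92.4% of 4-fold, 97.2% of 8-fold and 97.6% of 16-fold changes, and called 0.358% of unchanged features. All simulated features had the same spread, the median between replicates over the features tested. The replicate SD (log2) had a median of 0.99 over Phe and 0.52 over Trp, against 0.20 over initiator Met. The detection rates therefore need not hold for Phe or Trp. With 200 changed features the Benjamini-Hochberg adjustment is also easier to pass than in the data, where 2 features passed in this comparison. The rates thus need not hold for Met or SeC either. Alternatives were 2 pseudocounts, 2 filters, 4 scalings (trimmed mean of M values, quantile, genomic transfer RNA total, microRNA total), a block for the replicate number, no intensity trend, the groups of a contrast alone, 1 feature per sequence and each library left out. Paired omissions of KO libraries were added after the data were seen.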

Additional observations from a re-analysis of the deposited data

Results flagged for a closer look

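Trp tRNA857 and Trp tRNA398 were higher in both WT hypoxia libraries than in both WT normoxia libraries and lower in both KO hypoxia libraries than in both KO normoxia libraries. The hypoxia change of KO minus that of WT was -1.63 (log2) for Trp tRNA857 (chr10.tRNA857-TrpCCA) and -1.18 for Trp tRNA398 (chr11.tRNA398-TrpCCA). The test of this difference did not pass for either (limma, Benjamini-Hochberg adjusted p = 1.00 for both). Trp tRNA398 held 159 and 156 in WT cells at 21% O2, 186 and 164 at 1% O2, and in KO cells 221 and 400 at 21% O2 and 112 and 187 at 1% O2. Trp tRNA1820, which has the same letters as Trp tRNA398, overlapped in WT, with 177 in normoxia number 1 above 168 in hypoxia number 2. With libraries left out, the difference between the hypoxia changes ran from -1.61 to -0.39 for Trp tRNA398. For Trp tRNA857 it ran from -2.20 to -0.91. Opposite changes without overlap were found in 40 of 1540 features (2.6%), 2 of them among the transfer RNAs described here.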

How the results depend on the processing

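No transfer RNA of the 34 was called in any of the 7 comparisons under any setting, and the comparisons of a setting were mostly read from 1 fit. The number of the 34 with an unadjusted p under 0.05 moved between the settings that left no library out. It ran from 0 to 8 for hypoxia in WT (6 scaled to the genomic transfer RNA total, 6 to the microRNA total). For hypoxia in KO it was 3 to 10. For KO against WT it was 0 to 9 in normoxia (9 scaled to the microRNA total, 8 with the replicate block) and 0 to 3 in hypoxia. It was 1 to 10 for the difference of hypoxia changes, 0 for the mean hypoxia change and 0 to 1 for the mean genotype difference. The share over all features was not taken under the alternative settings. Counts over all features moved too. For KO against WT in normoxia 1 feature passed, 2 without the intensity trend, and 1 to 2 with a library left out (2 without WT hypoxia number 2). For the mean genotype difference 2 passed, against 13 scaled by trimmed means of M values (TMM), 85 scaled to the microRNA total, and 2 to 29 with libraries left out (29 without WT hypoxia number 2, 4 without KO hypoxia number 2). For hypoxia in WT 0 passed, against 1 with a pseudocount of 8 and 1 with a mean of at least 50. The cause was not tested. Scaling to the genomic transfer RNA total moved the median of all features from -0.058 to -0.32 for the mean genotype difference, and scaling to the microRNA total moved it to 0.13. For KO against WT in normoxia the former moved it from -0.064 to -0.35. With it the Phe and Trp medians of the mean genotype difference turned from 0.12 and 0.25 to -0.14 and -0.020.

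A block for the replicate number gave 91 features for the mean genotype difference, 3 for the mean hypoxia change and 8 for hypoxia in WT, and the block changed no call of a transfer RNA described here. Deviations by number were correlated between groups with r from 0.15 to 0.55, but 2 numbers do not establish pairs.

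Phe tRNA60 turned sign for hypoxia in KO from 0.072 to -0.072 scaled to the microRNA total, -0.70 without KO normoxia number 1, -1.06 without KO hypoxia number 1 and -1.84 without both, and with a library left out it reached 1.21. With KO hypoxia number 1 and KO normoxia number 2 both left out, a setting chosen like the last after seeing the data, it was -0.29, and Met tRNA913 ran from -1.40 to 0.30 around its -0.81. KO against WT for Phe tRNA60 turned to -0.30 in hypoxia without KO hypoxia number 1, also in both paired omissions (up to 1.97 without number 2), and to 0.19 in normoxia without KO normoxia number 1, alone or with KO hypoxia number 1 (down to -1.36 without number 2). Its difference between hypoxia changes ran from -0.49 without both number 1 KO libraries to 2.56. A group left with 1 library was assumed to vary like the others. With 2 libraries a group, changes of 2-fold were mostly missed in the simulated tables, whose detection rates need not hold here. Larger changes can also be missed in Phe, whose values spread more over libraries than those of most features tested. Met tRNA1101 (0 to 7) and SeC tRNA13 (22 to 43) held the lowest counts. Whether depth limits the other features was not tested.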
